A study of Homo sapiens with 8 samples.

Results

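Each of 12004 genes was asked whether its response to a pair of splicing drugs given together equals the sum of its responses to the drugs given alone. The genes are those that reached 100 counts in each of 8 RNA sequencing libraries of A549, an established human lung adenocarcinoma cell line. They are 64.3% of the 18661 genes that had enough counts to be tested, and the files list 60624 genes in all. Of the 12004 genes, 11220 were annotated as protein-coding and 517 as long noncoding RNAs, and together they held 99.4% to 99.5% of all counts on genes.

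The libraries fall into 4 groups of 2 technical replicates: untreated cells, cells given the sulfonamide indisulam, cells given the kinase inhibitor SPHINX31, and cells given both. The doses were 0.5 μM indisulam and 5 μM SPHINX31 for 24 h, whereas the protocol text deposited beside the libraries reads 2 μM indisulam and 18 h. All groups are the same line with no engineered allele, and p-values measure the spread between technical replicates, not between independent treatments. Polyadenylated RNA was sequenced to between 51727369 and 63186989 counts on genes per library, with 83.0% to 86.0% of the recorded reads assigned. The keratins KRT8, KRT18 and KRT7 of epithelial cells never had fewer than 66180 counts. Of the markers of leukocytes, fibroblasts and endothelium looked at, most were at or near 0 (CD3E at 0 in all 8 libraries, COL1A2 at most 1 count), while ITGAM had 110 to 277 counts, COL1A1 175 to 270 and PECAM1 83 to 133.

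Indisulam is a molecular glue: it binds the ubiquitin ligase adaptor DCAF15 and brings the splicing factor RBM39 to it, so that RBM39 protein is degraded. SPHINX31 inhibits SRPK1, a kinase that phosphorylates the arginine and serine rich tails of SR proteins, which help to define exons and which RBM39 resembles. Both drugs therefore meet at the recognition of splice sites, and a gene's mRNA level can move through its own splicing, through decay of misspliced RNA or through the cell's stress and cell cycle programs. The quantity described is the interaction: the log2 change with the combination minus the log2 change with indisulam minus that with SPHINX31, each against untreated cells. A value of 0 means that the fold changes multiply, a value below 0 that the combination lay below that level, and a value above 0 that it lay above.

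RBM39 and SRPK1 were described first. RBM39 (ENSG00000131051, chromosome 20, 35701347 to 35742312 on GRCh38) had 154 and 157 CPM (counts scaled to a common library size) in the untreated libraries, 361 and 360 with indisulam, 166 and 184 with SPHINX31, and 373 and 391 with both. Its mRNA rose with indisulam and with the combination, and the libraries with indisulam did not overlap those without it. Its interaction was -0.09 (95% interval -0.26 to 0.08, unadjusted p = 0.261), so that the combination lay close to the sum. SRPK1 mRNA (ENSG00000096063, chromosome 6, 35832966 to 35921342) had 128 and 130 CPM untreated, 104 and 101 with indisulam, 118 and 131 with SPHINX31, and 110 and 109 with both. Its interaction was 0.14 (95% interval -0.03 to 0.31, unadjusted p = 0.102). CLK1, another kinase of SR proteins, had an interaction of 0.07 (95% interval -0.19 to 0.32). RBM39 degradation itself is a protein event and is not visible in these counts.

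Over the 12004 genes, departures from the sum were small. The median interaction was -0.018, the middle 50% of the genes lay between -0.10 and 0.07, and 98% lay between -0.38 and 0.41. For comparison, the median absolute log2 change was 0.19 with indisulam, 0.10 with SPHINX31 and 0.22 with the combination. The 95% interval of the interaction lay wholly within 0.5 log2 units of 0, a 1.41-fold change, for 10304 genes (85.8%), and within 1 log2 unit for 11963 genes (99.7%). An absolute interaction of at least 0.5 was seen in 72 genes, 45 above and 27 below the sum, and one of at least 1 in a single gene, TXNIP. Genes just inside the limit of 100 counts (lowest library within 10 counts of it, 136 genes) had a median interaction of 0.09, and those just outside (189 genes) one of 0.10.

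**Figure D1:**
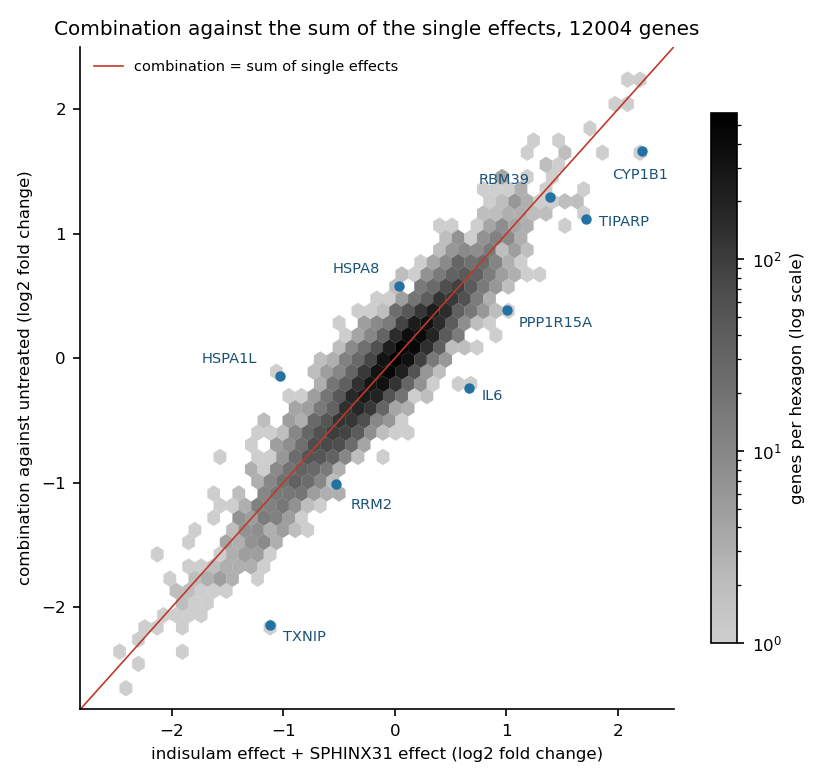
Log2 fold change of the combination against untreated cells (vertical axis) over the sum of the log2 fold changes of indisulam and SPHINX31 alone (horizontal axis) for 12004 genes; hexagons are shaded by the number of genes, and the red line marks equality. Most genes hug the line, with RBM39 next to it, CYP1B1, TIPARP, PPP1R15A, IL6, RRM2 and TXNIP below it and HSPA8 and HSPA1L above it.

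No gene passed an adjusted p-value of 0.05 for the interaction (quasi-likelihood test of edgeR, Benjamini-Hochberg over 18661 genes, 0% called, lowest adjusted p = 0.178 among the 12004). At an unadjusted p under 0.05 there were 1207 of the 12004 genes (10.1%), 375 above and 832 below the sum, where chance alone would give 600.2. Over all 18661 tested genes the share was 8.49%, with 3.56% above and 4.93% below. At an unadjusted p under 0.01 the numbers were 85 above and 260 below the sum (2.16% of all tested genes in both directions). The preponderance of genes below the sum depended on the scaling: of the genes with p under 0.05, 31.1% lay above the sum here, 37.9% when libraries were scaled by total counts, and 46.4% (519 above, 600 below) when library sizes were set from the 12004 genes alone. DESeq2 called 32 genes at an adjusted p under 0.05, 4 above and 28 below, among them TIPARP, CYP1B1, PPP1R15A, RRM2, SLC12A2 and HSPA8, and limma-voom called 0. The values below are therefore differences with their intervals, and none is a called change of the interaction in the main test. In the counts per gene list, p is unadjusted, and they are to be read against the shares over the 12004 genes: 10.1% at p under 0.05, 3.12% above and 6.93% below the sum.

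The interaction also moved with base composition and differed between replicate numbers. Genes were split into 5 equal bins by GC content, with medians from 39.4% to 61.2% GC. The median interaction was -0.06 in the most AT-rich bin and 0.03 in the most GC-rich bin (Spearman's rho over 11993 genes 0.23, across genes that are not independent). The interaction was also computed from the 4 libraries numbered 1 (set 1) and from the 4 numbered 2 (set 2). In set 1 the same medians were -0.08 and 0.13, and in set 2 they were -0.04 and -0.07. Both sets gave an interaction of the same sign for 60.3% of the genes, with a Pearson correlation across genes of 0.28, against 0.86 for the indisulam effect and 0.93 for the combination effect. The part of GC content in the single values below was not tested gene by gene, and list medians after a correction for GC content are given for the lists with the widest departures and where they differ by over 1.5 times.

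**Figure D2:**
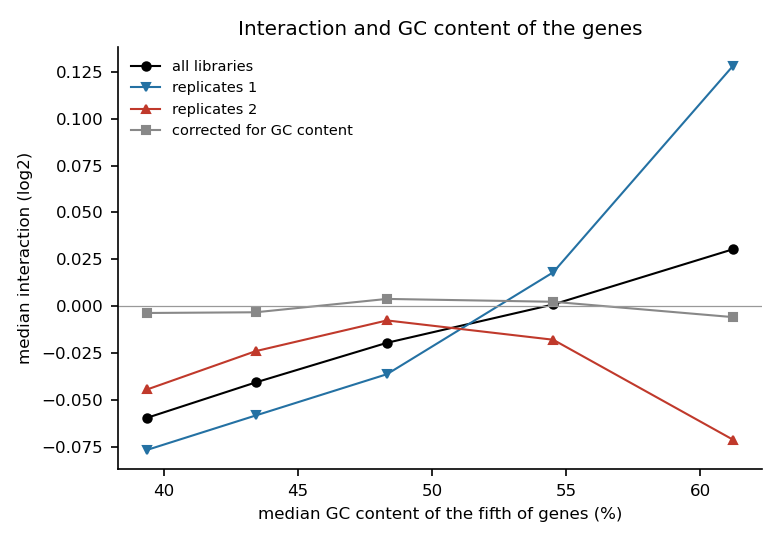
Median interaction (log2, vertical axis) in 5 bins of genes over the median GC content of each bin (horizontal axis, percent), from all libraries, from the libraries numbered 1 or 2 alone, and after counts had been adjusted for GC content. In the most GC-rich bin the numbered sets part, at 0.13 and -0.07, and the corrected values stay within 0.01 of 0.

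Sorted by the direction of the single effects, the genes that rose with SPHINX31 lay below the sum. Of the 12004 genes, indisulam changed 6062 (2923 higher and 3139 lower, against 43.7%, 20.1% and 23.5% of all tested genes). SPHINX31 changed 1447 (821 higher and 626 lower, against 8.61%, 4.94% and 3.67%), a count that fell to 430 or 476 without one or the other untreated library and to 643 without the SPHINX31 library numbered 1. The combination changed 6867 (3214 higher and 3653 lower, against 50%, 23.8% and 26.3%). Among the 409 genes raised by SPHINX31 and not called with indisulam the median interaction was -0.15 and 12.2% lay above 0, against 44.2% of all 12004 genes. It was -0.13 in the 183 genes that both drugs raised and -0.17 in the 229 genes that SPHINX31 raised and indisulam lowered. Genes lowered by SPHINX31 lay on the other side: the median was 0.08 in 282 genes not called with indisulam, 0.09 in 182 genes raised by indisulam and 0.03 in 162 genes that both drugs lowered. The 5251 genes called with neither drug had a median of -0.01.

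This ordering is partly built in. The untreated and SPHINX31 libraries enter both the SPHINX31 effect and, with the opposite sign, the interaction, so that noise alone places raised genes below the sum. The directions were therefore also taken from the libraries of one number (a log2 change of at least 0.5) and the interaction from those of the other. Genes raised by SPHINX31 alone kept medians of -0.13 (154 genes) and -0.19 (123 genes) in the 2 versions. Genes lowered by SPHINX31 alone had medians of -0.02 (134 genes) and 0.29 (52 genes), so that only one version showed the opposite side. Genes raised by both drugs had medians of -0.04 and 0.06 with 20 genes each, and genes lowered by both had -0.14 and 0.26 with 22 and 18.

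Along the indisulam axis the departures were small. In the main fit, genes lowered by indisulam alone lay slightly further below 0 than all genes, and those raised by it alone lay near 0. The 2748 genes lowered by indisulam and not called with SPHINX31 had a median interaction of -0.04, against -0.018 over all genes. Of these, 270 lay below and 51 above the sum at an unadjusted p under 0.05. With library sizes set from the 12004 genes alone, the 2 medians were -0.018 and 0.006. With direction and interaction from different libraries the median was -0.08 in both versions (1269 and 1230 genes). The 2558 genes raised by indisulam alone had a median of 0.004, with 79 above and 68 below the sum at an unadjusted p under 0.05. In the 2 versions the median was 0.03 and 0.09. Among the 237 genes that indisulam lowered at least 2-fold (a log2 change of -1 or less), the median interaction was -0.11 and 165 lay below 0. Their median indisulam effect was -1.20 without SPHINX31 and -1.34 with it. Among the 36 genes that indisulam raised at least 2-fold the median was 0.13 and 28 lay above 0 (44.2% of all 12004 genes). Their median effects were 1.21 without and 1.35 with SPHINX31.

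**Figure D3:**
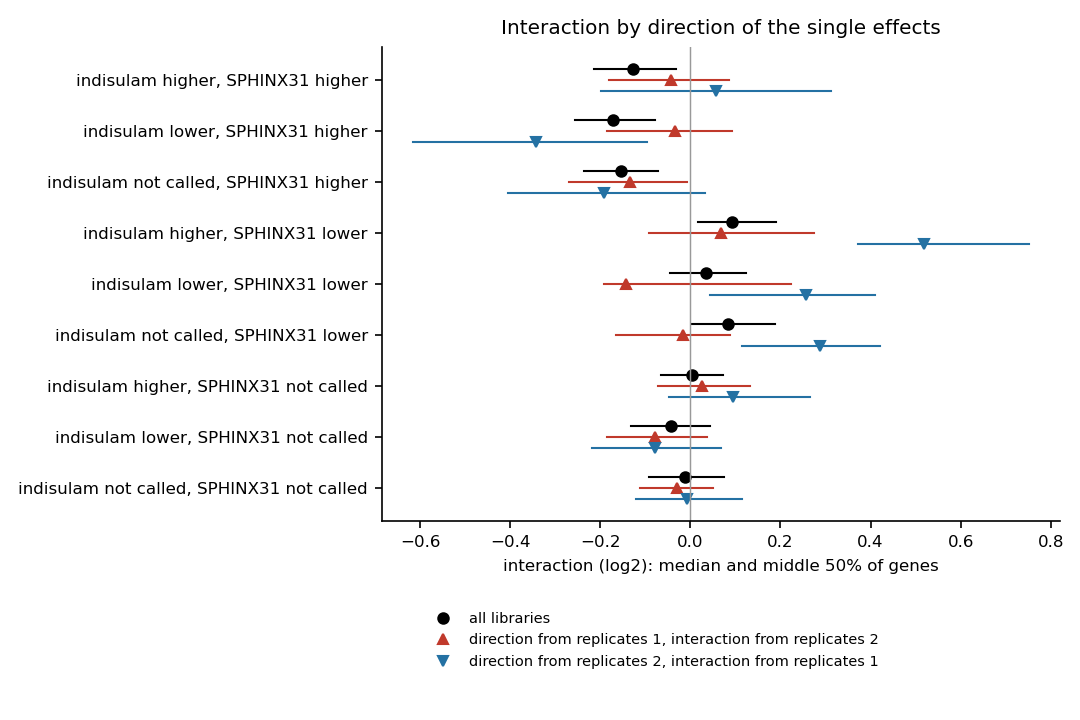
Interaction (log2, horizontal axis) in 9 classes of genes by the direction of the single effects; points are medians and lines span the middle 50% of the genes. Black classes use an adjusted p under 0.05 and all libraries, and colored ones a log2 change of at least 0.5 in the libraries of one number with the interaction from the other. The 3 classes raised by SPHINX31 have black medians between -0.17 and -0.13, and the blue median of the class raised by both drugs lies above 0.

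SPHINX31 at least doubled the level of 13 genes, a group picked after the values were seen, and 12 of them lay below the sum, 9 with an unadjusted p under 0.05. Being picked by the SPHINX31 effect, they share its noise in the way described above. Their median SPHINX31 effect was 1.17 without indisulam and 0.88 with it. The median interaction was -0.62 in set 1 and -0.26 in set 2. Both strongest responders are targets of the aryl hydrocarbon receptor, a ligand-activated transcription factor that pairs with ARNT and binds xenobiotic response elements with the core GCGTG. The others include the growth factor genes AREG and EREG, ligands of the epidermal growth factor receptor, with interactions of -0.43 each. They also include the secreted stress cytokine GDF15, at -0.15. The noncoding IGFL2-AS1 was the exception, at 0.27.

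TIPARP encodes a mono-ADP-ribosyltransferase that is induced by the receptor and restrains it. Of the 3 promoters that RefSeq gives for it (GRCh38.p14), one holds the core motif, in its reverse form CACGC, at 2 places. It is shown because the gene combines a strong SPHINX31 response with one of the smallest interaction p-values, and capitals mark the motif (chr3:156674340-156674639, plus strand, 250 bases before to 50 after the start).
TIPARP promoter: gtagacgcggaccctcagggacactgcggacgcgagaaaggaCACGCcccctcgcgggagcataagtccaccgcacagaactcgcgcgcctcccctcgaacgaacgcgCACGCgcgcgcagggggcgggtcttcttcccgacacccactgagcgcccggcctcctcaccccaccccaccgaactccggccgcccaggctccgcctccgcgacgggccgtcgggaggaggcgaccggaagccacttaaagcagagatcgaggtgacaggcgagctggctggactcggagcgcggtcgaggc
On either strand the motif occurs in 36.5% of the 35116 promoters in the RefSeq table, in 59.1% of the 9522 matched genes (any promoter) and in 6 of the 7 matched genes of the receptor list. TIPARP (ENSG00000163659, chromosome 3, 156673235 to 156706770) had 17.0 and 16.6 CPM untreated, 17.0 and 17.9 with indisulam, 51.1 and 55.2 with SPHINX31, and 34.2 and 38.6 with both. The combination libraries thus lay above the untreated and below the SPHINX31 libraries without overlap, whereas the sum of the single effects would give 55.2 CPM. The interaction was -0.60 (SE 0.103, 95% interval -0.82 to -0.38, unadjusted p = 5.44e-05, adjusted p = 0.178), with -0.58 and -0.63 in sets 1 and 2.

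CYP1B1 (ENSG00000138061, chromosome 2, 38066973 to 38109902), a cytochrome P450 that oxidizes polycyclic hydrocarbons and estrogens, also rose with SPHINX31 and less with both drugs. Unlike TIPARP, it was lowered by indisulam alone (log2 change -0.25). Its levels were 110 and 121 CPM untreated, 98.1 and 97.4 with indisulam, 639 and 636 with SPHINX31, and 339 and 395 with both, where the sum would give 538 CPM. All 4 groups were separate from each other, and the interaction was -0.55 (SE 0.0952, 95% interval -0.76 to -0.35, unadjusted p = 5.73e-05, adjusted p = 0.178). In sets 1 and 2 it was -0.74 and -0.37. NFE2L2, the master regulator of antioxidant genes and itself a target of the receptor, had an interaction of -0.19 (unadjusted p = 0.0196). NFE2L2 was at -0.13 without the combination library numbered 1, and it overlaps other genes on both strands. UGT1A6, which conjugates glucuronic acid to xenobiotics, lay on the other side at 0.34 (unadjusted p = 0.0314), and it shares exons with other genes of the UGT1A locus, so that its counts are uncertain. Of the 10 genes of the receptor list, 4 had p under 0.05 (3 below, 1 above), the median was -0.05 (-0.02 after the GC correction), and AHR, ARNT, NQO1, ALDH3A1 and SCIN had intervals that included 0. CYP1A1, CYP1A2, AHRR and LRAT did not reach 100 counts in every library. TIPARP and CYP1B1 overlap genes on the opposite strand (TIPARP-AS1; CYP1B1-AS1 and RMDN2), and the strand setting of the counting is not given in the sources used here.

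**Figure D4:**
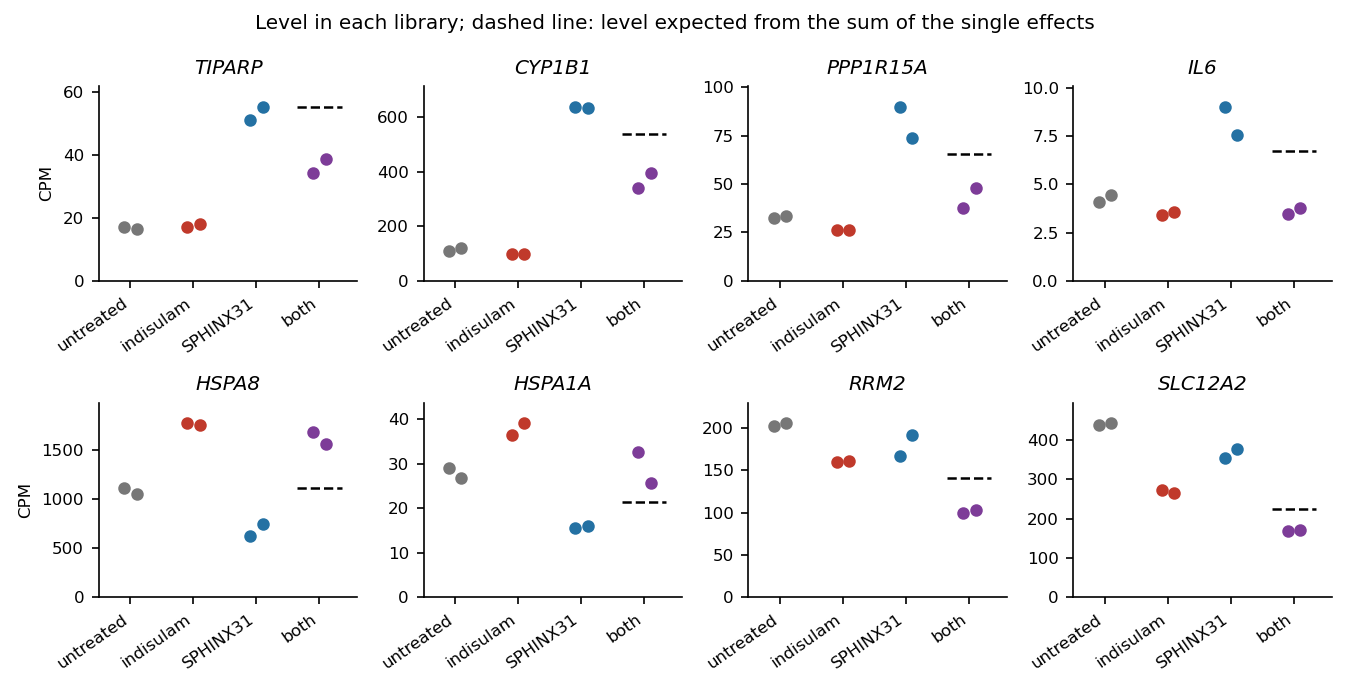
CPM (vertical axis, from 0) of 8 genes in each of the 8 libraries, with a dashed line at the level expected for the combination from the sum of the single effects. For TIPARP, CYP1B1, PPP1R15A, IL6, RRM2 and SLC12A2 both combination libraries lie under the dashed line, and for HSPA8 and HSPA1A above it.

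Heat shock genes moved in opposite directions with the single drugs, and the combination lay above their sum. These genes encode chaperones that fold cytosolic proteins, and HSF1 drives them through heat shock elements. Of 20 genes, indisulam raised 14 and SPHINX31 lowered 13, where over the 12004 genes the shares were 24.4% and 5.21%. An interaction above 0 with p under 0.05 was seen in 5 of them, against 3.12% of all genes, and one below 0 in none. The 182 genes of any function that indisulam raised and SPHINX31 lowered had a median of 0.09. Of these, 39 lay above and 2 below the sum at p under 0.05, and their direction shares noise with the interaction as described above. Whether the heat shock list differs from genes of this direction was not tested. The list's median was 0.09 against -0.018 over all genes, 0.10 after the GC correction, and 0.15 and 0.06 in sets 1 and 2. The element GAANNTTC, which reads the same on both strands, occurs in 6.77% of all RefSeq promoters. Counted by gene (any promoter), it occurs in 6.47% of the 9522 matched genes and in 10 of the 18 list genes that could be matched. It was not found in the promoter of HSPE1, whose interaction had p under 0.05, in this window and exact form. Promoters of HSPB1, HSP90AB1, HSP90AA1, DNAJB1, HSPD1 and CHORDC1, whose interactions had p of 0.05 or more, hold the element. The promoters of HSPA8 (chr11:123062087-123062386, minus strand) and HSPA1A (chr6:31815293-31815592, plus strand) are shown because HSPA8 carries the list's largest value and HSPA1A is an inducible gene of the same family, with the element in capitals.
HSPA8 promoter: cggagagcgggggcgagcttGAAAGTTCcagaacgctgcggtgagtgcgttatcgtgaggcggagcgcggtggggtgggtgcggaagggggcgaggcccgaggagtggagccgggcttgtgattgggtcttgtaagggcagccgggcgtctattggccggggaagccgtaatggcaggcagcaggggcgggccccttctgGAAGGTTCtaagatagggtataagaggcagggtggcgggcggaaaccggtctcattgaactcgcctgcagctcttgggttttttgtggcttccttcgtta
HSPA1A promoter: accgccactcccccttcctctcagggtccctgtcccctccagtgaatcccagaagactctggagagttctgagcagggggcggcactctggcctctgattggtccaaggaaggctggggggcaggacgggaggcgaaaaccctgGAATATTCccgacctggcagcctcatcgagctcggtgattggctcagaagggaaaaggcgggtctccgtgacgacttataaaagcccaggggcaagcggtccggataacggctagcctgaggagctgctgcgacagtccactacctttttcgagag
HSPA8 (ENSG00000109971, chromosome 11, 123057489 to 123063230), the constitutive cytosolic HSP70, had 1109 and 1053 CPM untreated, 1766 and 1753 with indisulam, 619 and 742 with SPHINX31, and 1679 and 1554 with both. SPHINX31 thus lowered it in cells without indisulam (log2 change -0.67, adjusted p = 0.000107), while in cells with indisulam the difference was -0.12. The interaction was 0.54 (95% interval 0.33 to 0.76, unadjusted p = 0.000106, adjusted p = 0.179). It was 0.77 in set 1 and 0.33 in set 2, and ran from 0.43 to 0.69 with each library left out.

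The inducible HSP70 genes also lay above the sum, but with the combination near the untreated level. HSPA1A had 29.0 and 26.8 CPM untreated, 36.5 and 39.1 with indisulam, 15.5 and 16.0 with SPHINX31, and 32.8 and 25.8 with both, an interaction of 0.45 (95% interval 0.17 to 0.74). It was 0.75 in set 1 and 0.14 in set 2, and 0.28 without the combination library numbered 1. Its near-identical neighbour HSPA1B had 0.47 (95% interval 0.22 to 0.72), and how reads were split between these copies is uncertain. HSPA1L, the third HSP70 gene of this cluster on chromosome 6, had the highest interaction of all named genes, 0.89 (95% interval 0.49 to 1.28), at only 115 to 283 counts. It fell with SPHINX31, to 2.12 and 2.22 CPM, and the combination libraries, at 4.22 and 3.65 CPM, stood near the untreated ones at 4.58 and 4.09. Smaller values above the sum were found for the mitochondrial co-chaperone HSPE1 (0.24) and the HSP40 protein DNAJA1 (0.23), whereas HSP90AA1 had 0.16 with an interval that included 0.

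Genes of the unfolded protein response, which senses misfolded proteins in the endoplasmic reticulum through IRE1 (ERN1), ATF6 and PERK (EIF2AK3), lay below the sum. Of 20 genes, 7 had p under 0.05, all below 0 (6.93% of all genes), and the list's median was -0.10 (-0.07 after the GC correction, -0.08 and -0.14 in sets 1 and 2). These 7 include the genes of all 3 sensors: ERN1 at -0.40 (unadjusted p = 0.000879), ATF6 at -0.26 and EIF2AK3 at -0.25. ERN1 had 78.3 and 81.4 CPM untreated, 56.6 and 52.9 with indisulam, 131 and 119 with SPHINX31, and 61.8 and 68.2 with both. SPHINX31 raised ERN1 and indisulam lowered it, and the combination libraries lay between the indisulam and the untreated ones. The interaction of ERN1 was -0.61 and -0.18 in sets 1 and 2. Among all 229 genes that SPHINX31 raised and indisulam lowered, 92 lay below and 1 above the sum at p under 0.05. DNAJB9, a co-chaperone that represses IRE1, had -0.54 (95% interval -0.83 to -0.26), with both combination libraries, at 15.5 and 16.5 CPM, below all other libraries. The chaperones HYOU1, HSPA5 and CANX had -0.28, -0.19 and -0.18, and CALR, a partner of CANX, had 0.11 with an interval that included 0.

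The endoplasmic reticulum stress element, CCAAT and CCACG with 9 bases of any kind between them, was searched on both strands. It occurs in 0.0769% of all RefSeq promoters, in 0.168% of the 9522 matched genes (any promoter) and in promoters of 7 of these 20 genes. HSPA5 (chr9:125241294-125241593, minus strand) and CANX (chr5:179698537-179698836, plus strand, 1 of 4 listed promoters, of which 3 overlapping ones hold it) are the members that hold it among those with p under 0.05, with the element in capitals.
HSPA5 promoter: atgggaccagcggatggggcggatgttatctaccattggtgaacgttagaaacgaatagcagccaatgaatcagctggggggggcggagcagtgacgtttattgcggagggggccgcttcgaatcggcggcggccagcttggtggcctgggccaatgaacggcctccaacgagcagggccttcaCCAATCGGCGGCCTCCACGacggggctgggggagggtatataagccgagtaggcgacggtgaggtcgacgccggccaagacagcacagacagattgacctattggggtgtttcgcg
CANX promoter: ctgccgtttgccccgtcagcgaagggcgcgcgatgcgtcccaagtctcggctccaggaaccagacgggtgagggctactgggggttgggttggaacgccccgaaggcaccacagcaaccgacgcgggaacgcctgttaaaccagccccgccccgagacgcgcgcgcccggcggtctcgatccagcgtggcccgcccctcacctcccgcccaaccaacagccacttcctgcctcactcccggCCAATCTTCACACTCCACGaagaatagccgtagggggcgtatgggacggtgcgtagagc
The element was not found in the promoters of ERN1, DNAJB9, HYOU1, ATF6 or EIF2AK3 in this window and in this exact form, and it was found in those of CALR, XBP1, CRELD2, PDIA6 and HSP90B1, whose interactions had p of 0.05 or more.

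Single genes of other stress and signalling lists also lay below the sum. PPP1R15A, the phosphatase subunit that reverses the phosphorylation of eIF2α, had 32.2 and 33.3 CPM untreated, 26.1 and 26.5 with indisulam, 90.0 and 73.6 with SPHINX31, and 37.5 and 48.0 with both, where the sum would give 65.6. Its interaction was -0.62 (95% interval -0.94 to -0.29, unadjusted p = 0.00114), but -0.95 and -0.29 in sets 1 and 2. In the list of ATF4 targets, which serve amino acid supply and the integrated stress response, 4 of 23 genes had p under 0.05, all below 0 (6.93% of all genes), ATF3 at -0.32 and CTH at -0.27 among them. ATF3 was at -0.19 without the SPHINX31 library numbered 1 and at -0.20 without the combination library numbered 1. The list's median was -0.07 (-0.04 after the GC correction), with -0.16 and 0.05 in sets 1 and 2, so that its side differed between them. Among immediate early genes, transcription factors switched on by growth signals, KLF6 (-0.32), JUN (-0.32) and EGR1 (-0.32) had p under 0.05. These 3 of 22 genes are 13.6%, near the 10.1% of all genes, and the list's median was -0.08 (-0.08 and -0.07 in sets 1 and 2). EGR1 was at -0.21 without the combination library numbered 1. SPHINX31 raised 13 of these 22 genes and indisulam lowered 11.

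The cytokine genes with the widest departures were low in level. IL6, the acute phase interleukin, had 4.06 and 4.46 CPM untreated, 3.40 and 3.55 with indisulam, 9.02 and 7.55 with SPHINX31, and 3.46 and 3.76 with both. Its rise with SPHINX31 (log2 change 0.96, adjusted p = 0.000209) shrank to 0.05 in cells that also had indisulam, and the combination libraries overlapped the indisulam ones. The interaction was -0.90 (95% interval -1.27 to -0.54, unadjusted p = 0.000127, adjusted p = 0.179), with -1.13 and -0.68 in sets 1 and 2. CXCL2, a chemokine for neutrophils, had the same shape, with 8.38 and 8.10 CPM under SPHINX31 and 4.04 and 4.19 under both, and an interaction of -0.76 (95% interval -1.08 to -0.43). The counts behind these values were 181 to 489 for IL6 and 195 to 474 for CXCL2, and IL6 overlaps IL6-AS1 and STEAP1B on the opposite strand. Of 16 NF-κB, cytokine and chemokine genes, these 2 had p under 0.05, and the median was -0.08.

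Genes of mitosis and of the centromere lay below the sum. Of 28 mitosis and spindle genes, 7 had p under 0.05, all below 0 (6.93% of all genes). The median was -0.10 (-0.08 after the GC correction), and both sets gave similar medians (-0.11 and -0.13). TOP2A, the topoisomerase that untangles chromosomes, had 629 and 685 CPM untreated, 355 and 330 with indisulam, 534 and 613 with SPHINX31, and 239 and 238 with both, an interaction of -0.33 (95% interval -0.53 to -0.13). The condensin subunit SMC4 had -0.33 as well, and CCNA2, cyclin A2, had -0.30. Without the SPHINX31 library numbered 2, TOP2A was at -0.21 and SMC4 at -0.22. CCNA2 passed the test with neither drug alone, and its combination libraries, at 73.5 and 76.4 CPM, lay below all other libraries, which were at 90.8 to 107. Of 26 centromere and kinetochore genes, 8 lay below and 1 (CENPW, 0.25) above the sum at p under 0.05, against 6.93% and 3.12% of all genes, with the lowest median of the 29 lists, -0.15 (-0.13 after the GC correction, -0.12 and -0.18 in sets 1 and 2). CENPA, the histone variant that marks the centromere, had -0.31 but overlaps SLC35F6 on its strand, and CENPM, of the constitutive centromere network, -0.39. SPHINX31 lowered 11 of the 28 mitosis genes and 5 of the 26 centromere genes, and raised none.

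DNA replication genes did not share this side. Of 35 genes, 5 lay above the sum at p under 0.05, among them ORC1 (0.26) and the licensing factor CDT1 (0.30), and 1 below, CDC45 (-0.27), with a median of 0.05. CDT1 was at 0.14 without the indisulam library numbered 1 (0.49 and 0.13 in sets 1 and 2), and ORC1 at 0.16 without the SPHINX31 library numbered 1. RRM2, the regulatory subunit of ribonucleotide reductase, which makes deoxynucleotides, was the exception within its list of 13. It had 202 and 205 CPM untreated, 160 and 161 with indisulam, 167 and 192 with SPHINX31, and 99.5 and 103 with both (ENSG00000171848, chromosome 2, 10120698 to 10211725). The combination libraries lay below all others, where the sum would give 141 CPM, and the interaction was -0.48 (SE 0.0850, 95% interval -0.66 to -0.30, unadjusted p = 7.48e-05, adjusted p = 0.179). The other 12 genes, the catalytic subunit RRM1 (0.06) included, had p of 0.05 or more. Among G1 cyclin and RB pathway genes 0 of 18 had p under 0.05.

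Targets of p53, the tumour suppressor that answers DNA damage, spread to both sides. Of 25 genes, 7 lay above the sum at p under 0.05, among them TP53INP1 (0.45), ZMAT3 (0.41) and BAX (0.23), and 2 below, GADD45A (-0.39) and TNFRSF10B (-0.16), with a median of 0.02. SPHINX31 raised GADD45A from 24.4 and 23.7 CPM to 47.6 and 41.0, and with both drugs it stood at 24.5 and 29.0. Its interaction was -0.62 and -0.17 in sets 1 and 2. GADD45A and TNFRSF10B are also known to answer to the integrated stress response, and whether this bears on their side was not tested. BAX, the pore-forming effector of apoptosis, rose with indisulam from 58.5 and 57.4 to 77.0 and 79.3 CPM and was at 99.6 and 97.3 CPM with both drugs.

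The splicing machinery, on which both drugs act, lay near or slightly above the sum. Core spliceosome genes had a median of 0.06 with 5 of 30 above the sum at p under 0.05, SNRPE (0.21), SNRNP70 (0.27), SNRPD2 (0.20), PRPF3 and PRPF8, and none below. SR proteins had a median of 0.04 (0.08 after the GC correction) with 2 of 13 above, SRSF11 (0.28) and SRSF8 (0.19), whereas the 8 kinases of SR proteins and the list's hnRNPs (1 of 27, HNRNPH3 at -0.18) gave 1 gene in all. The medians of these kinases and of the hnRNPs were 0.09 and 0.001, and 0.15 and 0.04 after the GC correction. SNRNP70 was at 0.15 without the combination library numbered 1 (0.44 and 0.09 in sets 1 and 2). SRSF11 was at 0.18 without the SPHINX31 library numbered 1, and HNRNPH3 at -0.10 without the indisulam library numbered 1. The 11 genes of the machinery that degrades RBM39 had a median of 0.02, with RBX1 (0.21) alone under 0.05. All 95% intervals of the SR proteins, their kinases, the core spliceosome, the hnRNPs and the degradation machinery lay within 0.5 of 0. Nonsense-mediated decay factors, by contrast, had a median of -0.11 (-0.08 after the GC correction), with -0.19 and -0.04 in sets 1 and 2. Of these 14 genes, 1 had p under 0.05, below the sum.

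Lists of large complexes had medians slightly above 0, with 5.41% to 14.3% of their genes at p under 0.05, against 10.1% of all genes. Cytosolic ribosomal proteins had a median of 0.06 with 33 of 37 above 0 (44.2% of all 12004 genes) and 2 at p under 0.05. Proteasome subunits had 0.06 with 4 of 31 (12.9%), and oxidative phosphorylation 0.06 with 3 above and 1 below of 28 (14.3%). The largest of these, PSMA6 at 0.50, had 0.08 and 0.94 in sets 1 and 2 and 0.32 without the SPHINX31 library numbered 2. Of 24 cholesterol synthesis genes, SPHINX31 raised 18 (6.84% of all 12004 genes). Their median was 0.03 (0.05 after the GC correction), but 0.22 and -0.15 in sets 1 and 2. The 3 with p under 0.05, LSS (-0.20) and SREBF2 (-0.17) among them, lay below the sum. Interferon-stimulated genes had 2 above and 2 below of 19, IFIT1 at 0.62 among the former. Glycolysis and hypoxia genes had 2 above and 2 below of 26, SLC2A1 at -0.25 and VEGFA at -0.20 the latter and ALDOA, which overlaps another gene on its strand, among the former. Without the SPHINX31 library numbered 1, SLC2A1 was at -0.14 and VEGFA at -0.10. ALDOA went from 0.38 to 0.23 without the SPHINX31 library numbered 2. Adhesion and matrix genes had 4 of 20 below, ZEB1 (-0.28) among them. NRF2 targets had 1 of 21, OSGIN1 at -0.32 (overlapped by MLYCD on its strand, and at -0.19 without the indisulam library numbered 2). Apoptosis regulators had 1 of 19, and YAP and TEAD targets 0 of 16. The medians of these 3 lists, -0.019, -0.029 and -0.050, became 0.003, -0.001 and -0.018 after the GC correction, and that of the glycolysis and hypoxia list went from 0.033 to 0.050.

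**Figure D5:**
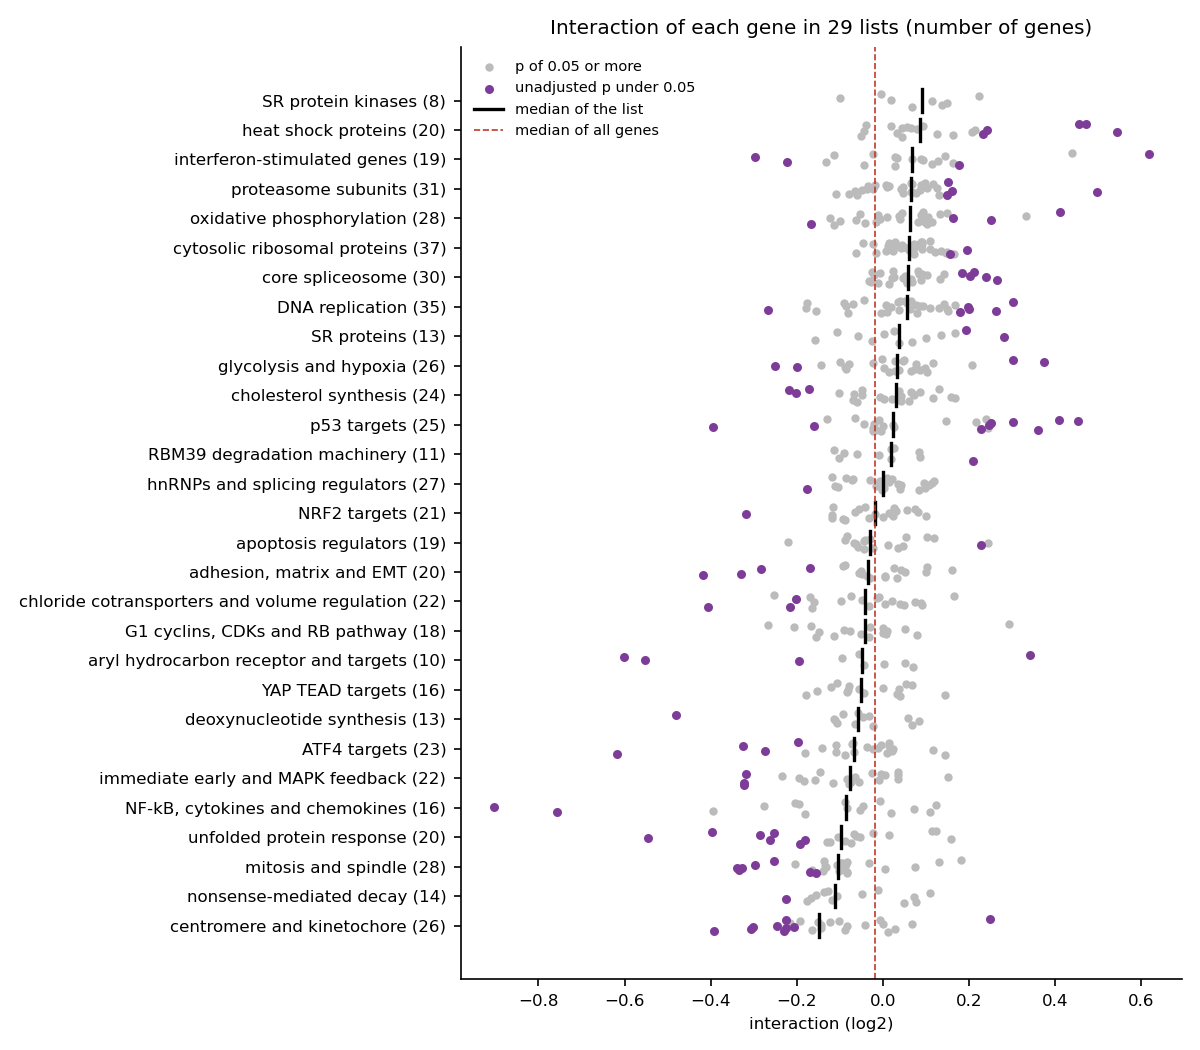
Interaction (log2, horizontal axis) of every gene in 29 lists ordered by their medians (black bars), with the number of genes in parentheses; purple points have an unadjusted p under 0.05, and the dashed line is the median of all 12004 genes. The centromere, nonsense-mediated decay, mitosis and unfolded protein response lists sit left of the dashed line, with medians from -0.15 to -0.10. The heat shock and core spliceosome lists sit right of it, at 0.09 and 0.06.

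SLC12A2, the sodium, potassium and chloride cotransporter NKCC1, was lowered by both drugs. It had 438 and 443 CPM untreated, 273 and 266 with indisulam, 354 and 379 with SPHINX31, and 168 and 170 with both (ENSG00000064651, chromosome 5, 128083766 to 128189677). The 4 groups did not overlap, and the combination lay below the 224 CPM of the sum. The interaction was -0.41 (SE 0.0684, 95% interval -0.55 to -0.26, unadjusted p = 4.64e-05, adjusted p = 0.178) and nearly equal in sets 1 and 2, -0.39 and -0.42. OXSR1, a kinase that activates this cotransporter, had -0.20, and 3 of 22 volume regulation genes had p under 0.05, all below the sum.

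The gene farthest from the sum was TXNIP, an inhibitor of thioredoxin and of glucose uptake. It had 12.8 and 15.2 CPM untreated, 4.52 and 5.44 with indisulam, 21.5 and 15.1 with SPHINX31, and 2.52 and 3.83 with both, so that the combination libraries were the lowest. Its interaction was -1.03 (95% interval -1.60 to -0.45, unadjusted p = 0.00198), with -1.59 and -0.49 in sets 1 and 2. SLCO2B1, an organic anion transporter, passed the test with neither drug alone (3.13 to 3.50 CPM in 6 libraries) and had 2.13 and 2.11 CPM with both, an interaction of -0.70. GGPS1, which makes geranylgeranyl diphosphate, had -0.65 and shares position with another gene on its strand, and the calcium-binding S100A14 had -0.61. After HSPA1L, the highest values included those of ATP2A1 (0.75), JPH1 (0.67), ERVMER34-1 (0.63), IFIT1 (0.62), TRIML2 (0.62) and NMU (0.61). Each of these genes had a library under 150 counts, with lowest counts of 115 to 148, and of the 8 lowest genes PPP1R15A and TIPARP never fell under 912 counts.

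Among the 12004 genes the smallest p-value belonged to TRAPPC6B, a subunit of a vesicle tethering complex (interaction -0.50, unadjusted p = 3.24e-05), followed by FERMT1, the integrin activator kindlin-1 (-0.45). GTPBP2, which acts in the rescue of stalled ribosomes, had -0.54, and the small GTPase RAB15 had -0.41. These genes were picked after their values were seen. Of the 15 smallest p-values 13 lay below the sum, and HSPA8 was among those above it.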

How the data were processed

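RNA of 8 A549 libraries was analysed. The deposited files hold raw counts per Ensembl gene. Per the labels, the authors used HISAT2 2.2.1 on GRCh38 and HTSeq. Trimming used SeqPurge, and the annotation release and strand setting are not given in the sources used here. Rows naming no gene (14.0% to 17.0% of recorded reads per library) were left out. Gene names, positions and GC content came from GENCODE release 44.

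Genes kept by filterByExpr (18661) were fitted with edgeR 4.0.16 in R 4.3.3 (TMM factors 0.978 to 1.02, 4 group means, quasi-likelihood test, 4 residual degrees of freedom) on all libraries, with Benjamini-Hochberg adjustment over all 18661. The coefficient of variation between replicates was 0.0491. Replicates were no copies of one library, since their counts differed beyond sampling (chi-square 6.59 to 10.7 for each degree of freedom). CPM uses TMM-adjusted library sizes. Standard errors and 95% intervals come from the quasi-likelihood fit and cover counting error and spread. The fitting was also run on simulated counts, and the outcome is not given here.

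The genes and the 29 lists were chosen with earlier results of these data known. Named genes are the 8 highest and 8 lowest interactions among 325 protein-coding genes with p under 0.01 and one sign in both replicate numbers, up to 3 per list with the smallest p under 0.05, RBM39, SRPK1, CLK1, SLC12A2, RRM2, TIPARP and CYP1B1. Genes named beyond these were picked after their values were seen. The heat shock and endoplasmic reticulum stress elements were also chosen then. Alternatives were RLE and total-count scaling, DESeq2 1.42.0, limma-voom (limma 3.58.1), other filters and thresholds, a replicate block, and each library left out. A GC correction and exchanged blocks were added after the data were seen. Some genes that the naming rule picks are not reported here.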

Additional observations from a re-analysis of the deposited data

Results flagged for a closer look

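Reads that fell outside annotated features, which no comparison above uses, were more frequent in the libraries with indisulam. They made up 4.99% of the recorded reads with indisulam (4.49% and 5.48% in the 2 libraries) and 5.37% with the combination (4.87% and 5.87%), against 4.14% in untreated cells (3.94% and 4.34%) and 3.80% with SPHINX31 (3.67% and 3.93%). No library with indisulam lay below an untreated or SPHINX31 library. The combination minus the single effects came to 0.730 percentage points on group means, which is close to the spread between the replicates of a group with indisulam (SD 0.700 and 0.709, n = 2). These were picked out because both groups with indisulam stood above the untreated level, and no test was made.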

How the results depend on the processing

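The count of genes with an interaction at an adjusted p under 0.05 stayed at 0 with RLE or total-count scaling, limma-voom, library sizes from the 12004 genes alone, the replicate block, the GC correction with and without the block, a threshold of 0.1, and a mean of 100 counts as the limit. DESeq2 gave 32 and a fit of all genes with at least 1 count gave 79. Leaving out each library gave 0 to 1, the 1 being HSPA8 without the SPHINX31 library numbered 2. Replicate numbers are shared between groups, but no source says that they pair libraries, and deviations of same-numbered libraries correlated from -0.445 (untreated and indisulam) to 0.370 (untreated and SPHINX31). Blocks with the indisulam numbers exchanged gave 12 genes, and with those of the combination exchanged too 18, an alternative chosen after the data were seen. Of genes with an unadjusted p under 0.05, the share above the sum was 41.9% after the GC correction (696 above, 967 below), 25.4% with DESeq2 and 29.5% with RLE.

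The number of genes changed with SPHINX31 (1447) was 2414 and 2335 with the exchanged blocks, 2541 and 2223 with the GC correction without and with the block, 2281 at a threshold of 0.1, 1204 with the block, and 430 to 1598 with each library left out. The indisulam and combination counts stayed within 1.5 times.

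Class medians moved as follows. Requiring an absolute log2 change of 0.5 gave -0.19 (both raised), 0.31 (indisulam raised, SPHINX31 lowered), 0.033 and -0.050 (raised or lowered by indisulam alone), and -0.24 and 0.23 (raised or lowered by SPHINX31 alone). With directions from number 1 and interactions from number 2, and the reverse, they were -0.043 and 0.058 (both raised), 0.068 and 0.52 (indisulam raised, SPHINX31 lowered), 0.027 and 0.094 (raised by indisulam alone), -0.035 and -0.34 (indisulam lowered, SPHINX31 raised), -0.14 and 0.26 (both lowered), -0.0785 and -0.0787 (lowered by indisulam alone), and -0.016 and 0.29 (lowered by SPHINX31 alone). Library sizes from the 12004 genes gave 0.027 and -0.018 for genes raised or lowered by indisulam alone and 0.014 for genes called with neither drug. The GC correction gave 0.020 and -0.030 for the first pair, and for genes lowered by indisulam alone RLE gave -0.046 and total counts -0.028. With each library left out, the ranges were -0.21 to -0.097 (both raised), -0.017 to 0.023 (raised by indisulam alone), -0.047 to -0.035 (lowered by indisulam alone) and -0.23 to -0.11 (raised by SPHINX31 alone). The cause of these moves was not tested.

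Of the named genes, RBM39 was above the sum on the linear scale, by 1.49 CPM, and CLK1 ran from -0.035 without the SPHINX31 library numbered 1 to 0.20 without that numbered 2, and was also below 0 (-0.031) without the indisulam library numbered 2. For 22 of the 77 named genes, leaving out a single library moved the interaction by over 1.5 times. The other reruns of named genes kept their sign, and 37 of them newly passed the threshold. With 2 technical replicates per group, the median standard error of an interaction was 0.0982, so that departures much under 0.25 were mostly not resolvable, and intervals were wider for genes near 100 counts.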
